A study of Mus musculus with 24 samples.

Results

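The genes described here are 10 that make and carry the cargo of neurosecretory granules: the prohormone convertases Pcsk1 and Pcsk2, the convertase chaperone Scg5, the trimming and amidating enzymes Cpe and Pam, and the granin family members Chga, Chgb, Scg2, Scg3 and Vgf. They were chosen by name for this shared role, and all 10 are among the 22274 genes of the table. All 10 passed the filter on low counts in every comparison, with counts from 405 to 48273 per library. Total counts were 15095267 to 17973494 per library.

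RNA of male C57BL/6J mice was sequenced in 24 libraries, 3 in each of 8 groups. In the lesioned mice the pituitary stalk, which carries hypothalamic axons to the pituitary, was destroyed by an electric current through a stereotaxically placed knife (PEL, pituitary stalk electrical lesion). Hypothalamic tissue holding the supraoptic and paraventricular nuclei came from Sham mice, labelled day 0, and from lesioned mice taken on day 3, called PEL_3d, or on day 10, called PEL_10d. The same 3 conditions were also sequenced with GH, a treatment that the labels give by this abbreviation alone. Hippocampal tissue came from Sham mice, labelled day 0, and from PEL mice at day 10. No Sham library is labelled day 3 or day 10, so surgery and time after it cannot be told apart in a comparison with Sham. Whether a library is 1 animal or a pool, and the dose of GH, are not given in the sources used here, and p-values measure the spread between these libraries.

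Peptide hormones such as vasopressin and oxytocin are made as long precursors that enter the regulated secretory pathway. In the trans-Golgi network the granins aggregate with them and help to form dense-core granules. Within the maturing granule PC1/3 and PC2 cut at basic residues, carboxypeptidase E removes those residues from the new C-terminus, and peptidylglycine alpha-amidating monooxygenase amidates peptides that end in glycine. Magnocellular neurons of the supraoptic and paraventricular nuclei, whose axons run through the stalk, use this machinery, and so do many other neurons, and endocrine cells of the pituitary.

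Reference promoters of 8 of the 10 genes were found in RefSeq (GRCm38.p6), as windows of 300 bases from 250 before to 50 after the annotated start. Those of Pcsk1, Chgb and Scg2 are printed because they alone among the 8 hold the complete cyclic AMP response element TGACGTCA, the palindrome bound by CREB family factors. It lies 78, 72 and 68 bases before the start, respectively. Capitals mark this element and, in Pcsk1, a separate copy of its core TGACG that begins 50 bases before the start. The windows are chr13:75089607-75089906 on the plus strand, chr2:132781392-132781691 on the plus strand and chr1:79439977-79440276 on the minus strand, and each sequence reads 5′ to 3′ on the gene's strand.
Pcsk1: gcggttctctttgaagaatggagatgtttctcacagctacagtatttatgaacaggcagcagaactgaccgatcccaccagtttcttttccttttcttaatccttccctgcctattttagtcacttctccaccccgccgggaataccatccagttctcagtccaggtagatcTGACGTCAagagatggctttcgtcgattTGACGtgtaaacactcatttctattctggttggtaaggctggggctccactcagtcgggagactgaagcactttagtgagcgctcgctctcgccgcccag
Chgb: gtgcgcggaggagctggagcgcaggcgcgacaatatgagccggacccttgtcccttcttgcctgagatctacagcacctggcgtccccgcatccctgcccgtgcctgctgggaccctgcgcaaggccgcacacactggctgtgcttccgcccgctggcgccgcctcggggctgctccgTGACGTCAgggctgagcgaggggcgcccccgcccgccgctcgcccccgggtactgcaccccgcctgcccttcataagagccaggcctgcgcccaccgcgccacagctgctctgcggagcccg
Scg2: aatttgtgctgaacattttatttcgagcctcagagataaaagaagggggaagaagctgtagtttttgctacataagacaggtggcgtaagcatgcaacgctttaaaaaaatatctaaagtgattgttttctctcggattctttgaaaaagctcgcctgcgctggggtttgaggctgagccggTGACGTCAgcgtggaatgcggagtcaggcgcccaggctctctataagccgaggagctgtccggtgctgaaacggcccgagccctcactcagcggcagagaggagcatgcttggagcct
The complete element was present in 3 of these 8 genes and in 1.79% of 32851 RefSeq promoter windows, searched on both strands. The core TGACG, which also lies inside the complete element, was found in Pcsk1, Pcsk2, Chga, Chgb, Scg2, Scg3 and Scg5 but not in the windows of Pam, and in 20.8% of all windows. The RE1 element, bound by the neuronal repressor REST, matched none of the windows of the 8 genes and 0.0639% of all windows. A match is a description of the letters and not of binding.

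A pair of libraries went against their labels. The hypothalamic library labelled Sham 1 held 0.45 FPKM of the vasopressin gene Avp, against 139.9 and 223 in Sham 2 and 3, and 92.2 FPKM of the hippocampal gene Neurod6, against 0.25 and 0.21. The hippocampal library labelled Sham 1 held 139 FPKM of Avp and 0.43 FPKM of Neurod6. Each library labelled Sham 1 thus carried markers of the other tissue, and hypothalamic Sham values below rest on Sham 2 and 3 unless stated. Hippocampal Sham 3 is titled as hippocampus and labelled hypothalamus in another field. It held 143 FPKM of Neurod6 and was kept as hippocampus.

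Levels are given as deposited FPKM, a unit scaled by library size and gene length, so that genes can be set side by side. Cpe was the most abundant of the 10 genes in all 24 libraries and Pcsk1 the least. In Sham 2 and 3 the order from high to low was Cpe, Scg2, Scg5, Scg3, Chga, Chgb, Pam, Vgf, Pcsk2 and Pcsk1, and no neighbouring pair overlapped between these libraries. In the 3 libraries of Sham with GH, Chga and Scg3 overlapped, as did Scg3 and Chgb, and Chgb and Pam.

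**Figure D1:**
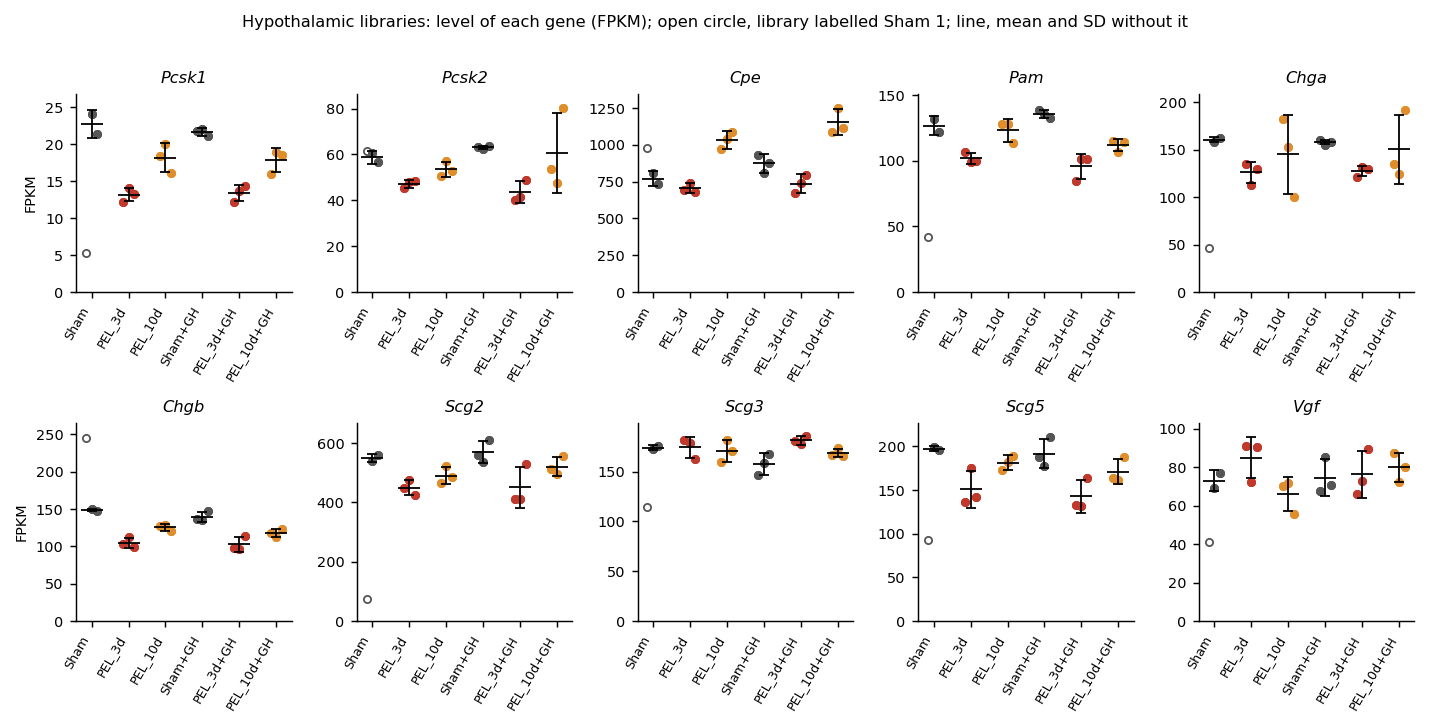
FPKM of each gene (y axis, linear from 0) in the hypothalamic libraries by group (x axis), 1 point per library, with the mean and SD as lines and the library labelled Sham 1 as an open circle outside them. Pcsk1, Pcsk2, Pam, Chga, Chgb, Scg2 and Scg5 were lower in each PEL_3d library than in Sham 2 and 3, and Cpe was higher in each PEL_10d library than in them.

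At day 3 after the lesion most of the machinery was lower than in Sham. The lowered set joined both convertases, the PC2 chaperone Scg5, the amidating enzyme Pam and the granins Chga, Chgb and Scg2, while Cpe, Scg3 and Vgf did not pass the test. In PEL_3d against Sham 7 of the 10 genes fell and 0 rose, where 40.5% of all 14887 genes tested passed, 22.3% rising and 18.2% falling (edgeR's quasi-likelihood test, Benjamini-Hochberg adjusted p under 0.05). The median log2 fold change of the 10 genes was -0.35, and -0.01 over all genes. In PEL_3d with GH against Sham with GH, a comparison between other libraries, 8 fell and 0 rose, where 52.1% of all genes passed, 26.9% rising and 25.1% falling, and the median of the 10 was -0.41.

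By day 10 fewer of the genes differed from Sham, and Cpe had moved above it. In PEL_10d against Sham Cpe rose and Chgb fell, where 9.42% of genes passed, 7.98% rising and 1.44% falling. With GH in both groups Cpe rose and Pcsk1, Pam and Chgb fell, where 31% of genes passed, 17.7% rising and 13.3% falling. Between the lesioned groups, PEL_10d against PEL_3d, Cpe, Pcsk1, Pam and Chgb rose and Vgf fell, where 18.5% of genes passed, 6.33% rising and 12.2% falling. The 5 that did not pass were at 0.19 (Pcsk2), 0.27 (Scg5), 0.21 (Chga), 0.13 (Scg2) and -0.05 (Scg3) on the log2 scale (edgeR adjusted p = 0.076 to 0.66). With GH in both groups Cpe and Pcsk1 rose and 0 genes fell, where 15.6% of genes passed, 4.81% rising and 10.8% falling. Cpe rose 1.56-fold there (edgeR adjusted p = 0.0039), and the 8 that did not pass were at 0.47 (Pcsk2), 0.25 (Scg5), 0.23 (Pam), 0.23 (Chga), 0.19 (Chgb), 0.19 (Scg2), -0.06 (Scg3) and 0.08 (Vgf), with edgeR adjusted p = 0.10 to 0.65. PEL_3d against Sham and PEL_10d against Sham share their Sham libraries, and each shares its PEL libraries with PEL_10d against PEL_3d, so these counts are not independent of each other.

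**Figure D2:**
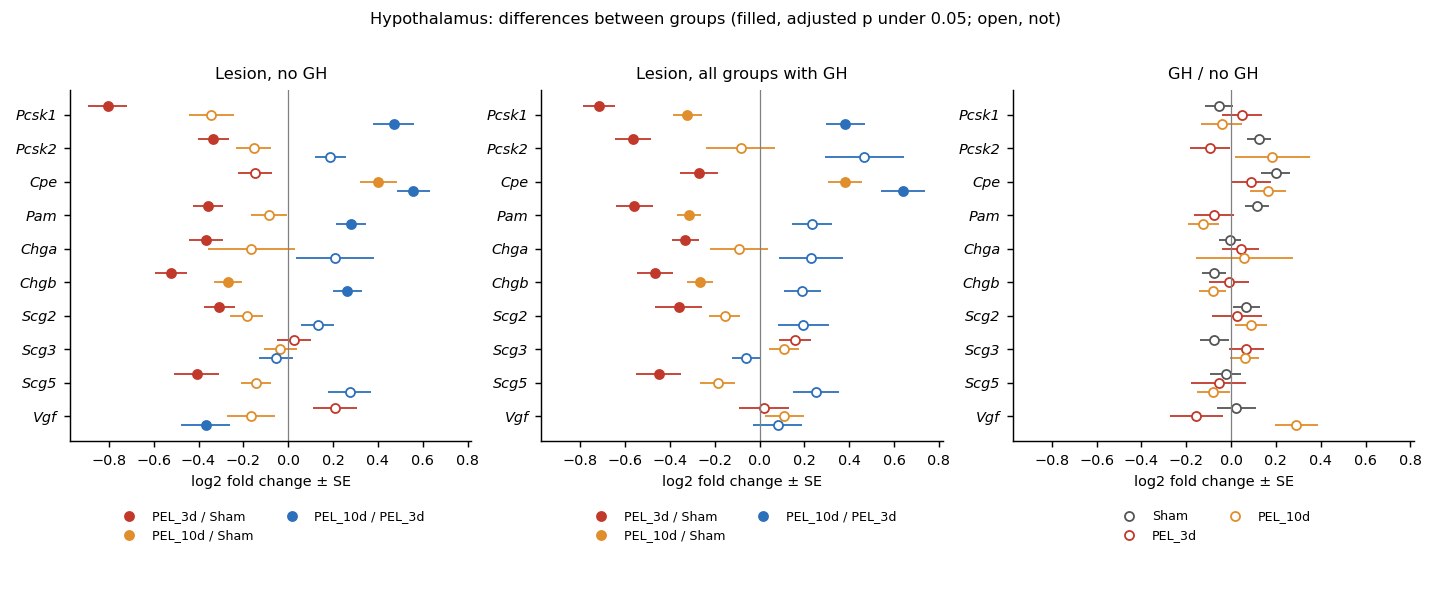
Log2 fold changes with their SE (x axis) of the 10 genes (y axis) in 9 comparisons of hypothalamic groups, filled where the adjusted p was under 0.05. At day 3 Pcsk1 showed the lowest value, -0.81 without GH and -0.72 with GH, Cpe was above 0 at day 10 in both series, and no value in the GH panel passed.

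Pcsk1 encodes PC1/3, which makes the first cuts in many prohormones (chr13:75089826-75134861, plus strand; all positions are GENCODE vM21 on GRCm38). Its level was 24.0 and 21.4 FPKM in Sham 2 and 3. It was 12.2, 14.1 and 13.2 in the PEL_3d libraries and 18.4, 20.0 and 16.1 in the PEL_10d libraries. The 3 groups did not overlap, with PEL_10d in between. Pcsk1 was 1.75-fold lower in PEL_3d than in Sham (log2 fold change -0.81 ± 0.09, SE; edgeR adjusted p = 4.9e-05), the widest difference of the 10 genes. It was 1.39-fold higher in PEL_10d than in PEL_3d (edgeR adjusted p = 0.0076), and the remaining difference between PEL_10d and Sham, -0.34 ± 0.10 (SE), did not pass (edgeR adjusted p = 0.067). With GH the libraries held 21.8, 22.0 and 21.1 FPKM in Sham, 12.2, 13.6 and 14.3 in PEL_3d and 16.0, 19.0 and 18.5 in PEL_10d, again without overlap. In this series the decrease was 1.64-fold at day 3 (edgeR adjusted p = 2.8e-05) and 1.25-fold at day 10 (edgeR adjusted p = 0.0049). From day 3 to day 10 with GH Pcsk1 rose 1.30-fold (edgeR adjusted p = 0.022), a call lost without PEL_3d with GH 1 or 2 or PEL_10d with GH 2 or 3 (edgeR adjusted p = 0.063 to 0.096).

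Pcsk2 encodes PC2, the convertase that makes later cuts in the granule (chr2:143546156-143816285, plus strand). It shares 260 and 137 exonic bases with the antisense genes Pcsk2os1 and Pcsk2os2, and whether counting used strand is not given in the sources used here. Its level was 60.8 and 56.6 FPKM in Sham 2 and 3 and 45.2, 47.9 and 48.3 in PEL_3d, with no overlap. The difference was -0.33 ± 0.07 (SE) on the log2 scale (edgeR adjusted p = 0.0033), and it lost its call without Sham 2 (edgeR adjusted p = 0.064) and in 1 fit over all hypothalamic groups (0.084). With GH it was 63.3, 62.5 and 63.7 FPKM in Sham and 40.0, 41.4 and 48.9 in PEL_3d, a 1.48-fold decrease (edgeR adjusted p = 0.00025). At day 10 the libraries held 50.7, 57.0 and 52.7 FPKM without GH, and the difference from Sham did not pass (-0.15 ± 0.08, SE; edgeR adjusted p = 0.25). With GH at day 10 they held 53.8, 47.4 and 80.2 FPKM, and the third library stood above every other hypothalamic library (-0.09 ± 0.15, SE, against Sham with GH; edgeR adjusted p = 0.71). That library is described with the pituitary genes below.

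Scg5 encodes the small protein that PC2 needs to become active, known as 7B2 (chr2:113776362-113829121, minus strand). It held 199 and 196 FPKM in Sham 2 and 3 and 136, 175 and 142 in PEL_3d, a decrease of 1.33-fold (log2 fold change -0.41 ± 0.10, SE; edgeR adjusted p = 0.0088). PEL_3d 2 was the highest of its group but still under both Sham libraries, and the call was lost without Sham 2 or Sham 3 (edgeR adjusted p = 0.088 and 0.057). With GH it held 188, 177 and 210.3 FPKM in Sham and 132, 131 and 164 in PEL_3d (1.37-fold lower; edgeR adjusted p = 0.0036). At day 10 it was 173, 182 and 189 FPKM without GH and 164, 161 and 188 with GH, and neither group passed against its Sham (edgeR adjusted p = 0.23 and 0.099).

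Cpe, carboxypeptidase E, also serves as a sorting receptor in the secretory pathway (chr8:64592542-64693054, minus strand). Its level at day 10 lay above Sham. Sham 2 and 3 held 806 and 735 FPKM, the PEL_3d libraries 695, 741 and 678, and the PEL_10d libraries 969.8, 1040.5 and 1089. The first groups overlapped, and every PEL_10d library lay above both. Against Sham, Cpe differed by -0.15 ± 0.07 (SE) at day 3 (edgeR adjusted p = 0.14) and was 1.32-fold higher at day 10 (log2 fold change 0.40 ± 0.08, SE; edgeR adjusted p = 0.017). From day 3 to day 10 it was 1.47-fold higher (edgeR adjusted p = 0.00092). With GH the libraries held 932, 809 and 879.5 FPKM in Sham, 671, 741 and 799 in PEL_3d and 1091, 1254 and 1117 in PEL_10d. Here Cpe fell 1.21-fold at day 3 (edgeR adjusted p = 0.023) and rose 1.30-fold at day 10 (edgeR adjusted p = 0.0044). The decrease at day 3 with GH lost its call without PEL_3d with GH 1 or 2 or Sham with GH 1 or 3 (log2 fold change -0.20 to -0.28, edgeR adjusted p = 0.052 to 0.11). The increase at day 10 without GH lost its call without Sham 2 or Sham 3, which leaves 1 Sham library whose spread is taken from the PEL group (log2 fold change 0.48 and 0.33, edgeR adjusted p = 0.11 and 0.21). Oligodendrocyte markers, 8 genes of myelin, were also higher at day 10, where 3 of 8 rose without GH and 8 of 8 with GH, while at day 3 with GH, where Cpe fell, 1 rose and 0 fell. They summed to 2064 to 2857 FPKM in Sham 2 and 3, 2320.4 to 2412 in PEL_3d and 3333 to 3515 in PEL_10d, and with GH to 2181 to 2427 in Sham, 2292 to 2701 in PEL_3d and 3882 to 4372 in PEL_10d. Their part in the level of Cpe was not tested.

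Pam encodes the enzyme that amidates peptides such as vasopressin and oxytocin (chr1:97795114-98095646, minus strand). It shares 188 exonic bases with B230216N24Rik on the same strand. Pam held 132 and 122 FPKM in Sham 2 and 3, 107, 99.5 and 99.6 in PEL_3d and 128, 128 and 113 in PEL_10d. PEL_3d lay under both other groups, and PEL_10d overlapped Sham. The decrease at day 3 was 1.28-fold (log2 fold change -0.36 ± 0.07, SE; edgeR adjusted p = 0.0019), and from day 3 to day 10 Pam rose 1.21-fold (edgeR adjusted p = 0.019), which was lost without PEL_3d 3 or PEL_10d 2 (edgeR adjusted p = 0.086 and 0.083). With GH it held 139, 135 and 133 FPKM in Sham, 84.5, 101 and 101 in PEL_3d and 115, 107 and 114 in PEL_10d, with no overlap between Sham and either lesioned group. Pam fell 1.47-fold at day 3 (edgeR adjusted p = 0.00031) and was still 1.24-fold lower at day 10 (edgeR adjusted p = 0.0018).

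Among the granins, Chgb, chromogranin B, differed most from Sham at day 3, with and without GH (chr2:132781278-132795079, plus strand). It held 149.9 and 148 FPKM in Sham 2 and 3, 103, 112 and 99.8 in PEL_3d and 127, 129 and 121 in PEL_10d. The 3 groups did not overlap. Chgb was 1.44-fold lower at day 3 (log2 fold change -0.52 ± 0.07, SE; edgeR adjusted p = 0.00022) and 1.20-fold lower at day 10 (-0.27 ± 0.06, SE; edgeR adjusted p = 0.03). With GH it held 136, 135 and 147 FPKM in Sham, 98.1, 96.2 and 114 in PEL_3d and 118, 113 and 123 in PEL_10d, and it was 1.38-fold lower at day 3 (edgeR adjusted p = 0.00072) and 1.20-fold lower at day 10 (edgeR adjusted p = 0.0076). In edgeR it was the only one of the 10 genes to pass as lower in all 4 comparisons of a lesioned group with its Sham, while in DESeq2 Pcsk1 did so too (at day 10 without GH, DESeq2 adjusted p = 0.03). From day 3 to day 10 without GH Chgb rose 1.20-fold (edgeR adjusted p = 0.021), which was lost without PEL_3d 1, PEL_3d 3 or PEL_10d 2 (edgeR adjusted p = 0.076 to 0.10). Without GH its call at day 10 was lost when Sham 2, Sham 3 or PEL_10d 3 was left out (log2 fold change -0.24 to -0.29, edgeR adjusted p = 0.068 to 0.27).

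Chga, chromogranin A, is the best known cargo of endocrine granules (chr12:102554969-102565028, plus strand). It held 158 and 162 FPKM in Sham 2 and 3 and 135, 113 and 130.1 in PEL_3d, and was 1.29-fold lower at day 3 (log2 fold change -0.37 ± 0.08, SE; edgeR adjusted p = 0.0036). With GH it held 160.0, 155 and 158 FPKM in Sham and 121, 132 and 129.6 in PEL_3d (1.26-fold lower; edgeR adjusted p = 0.0013). In 1 fit over all hypothalamic groups neither decrease passed (edgeR adjusted p = 0.12 and 0.11). At day 10 its libraries were spread widely, at 183, 153 and 100.001 FPKM without GH and 135, 124 and 192 with GH. These overlapped the Sham levels, and neither group passed (edgeR adjusted p = 0.66 and 0.62).

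Scg2, secretogranin II, is the precursor of the peptide secretoneurin (chr1:79434669-79440120, minus strand). It held 539 and 559 FPKM in Sham 2 and 3, 448, 475 and 425 in PEL_3d and 465, 521 and 485 in PEL_10d. Both lesioned groups lay under Sham, and only the decrease at day 3 passed (1.24-fold; log2 fold change -0.31 ± 0.07, SE; edgeR adjusted p = 0.0052; at day 10 -0.19 ± 0.07, SE, edgeR adjusted p = 0.15). Without Sham 3 the day 3 call was lost (edgeR adjusted p = 0.061). With GH it held 560.4, 536 and 609.7 FPKM in Sham and 412, 410.5 and 531 in PEL_3d (1.28-fold lower; edgeR adjusted p = 0.015), a call lost without PEL_3d with GH 1 or 2 or Sham with GH 3 (edgeR adjusted p = 0.058 to 0.077). At day 10 with GH it held 512, 494 and 555 FPKM, which overlapped Sham with GH (edgeR adjusted p = 0.12).

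Scg3, secretogranin III, which links chromogranin A to the granule membrane, passed in none of these comparisons (chr9:75643189-75684056, minus strand). It held 172 and 176 FPKM in Sham 2 and 3, 182, 179 and 163 in PEL_3d and 159, 181 and 171 in PEL_10d, and the groups overlapped. The 95% intervals of its log2 fold change against Sham were -0.12 to 0.17 at day 3 and -0.18 to 0.11 at day 10. With GH it held 146, 159 and 168 FPKM in Sham and 181, 177 and 186 in PEL_3d, with no overlap, and the difference of 0.16 ± 0.07 (SE) did not pass (edgeR adjusted p = 0.088). At day 10 with GH it held 167, 174 and 166 FPKM (0.11 ± 0.07, SE; edgeR adjusted p = 0.25).

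Vgf, a neurotrophin-responsive precursor of several peptides, passed only between the lesioned groups without GH (chr5:137026392-137033351, plus strand). It held 69.0 and 76.9 FPKM in Sham 2 and 3, 91.2, 72.5 and 90.7 in PEL_3d and 70.2, 72.0 and 55.8 in PEL_10d. Each PEL_10d library lay below each PEL_3d library, and the decrease was 1.29-fold (log2 fold change -0.37 ± 0.11, SE; edgeR adjusted p = 0.045). That call was lost when any of PEL_3d 1, PEL_3d 3, PEL_10d 1, PEL_10d 2 or PEL_10d 3 was left out (log2 fold change -0.27 to -0.43, edgeR adjusted p = 0.052 to 0.16). Against Sham the differences were 0.21 ± 0.10 (SE) at day 3 and -0.17 ± 0.11 (SE) at day 10 (edgeR adjusted p = 0.12 and 0.39). With GH its groups overlapped, at 67.5 to 85.5 FPKM in Sham, 66.1 to 89.5 in PEL_3d and 72.4 to 87.1 in PEL_10d, with differences from Sham of 0.02 and 0.11 (edgeR adjusted p = 0.9 and 0.38).

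Genes of other cell types and of all neurons moved in the same libraries. At day 3 without GH 11 of 14 pan-neuronal markers fell and 0 rose (median of their log2 fold changes -0.34), and with GH 12 of 14 fell (median -0.54). At day 10 without GH 3 of 14 fell (median -0.18), and with GH, where Pcsk1, Pam and Chgb fell, 11 of 14 fell (median -0.29), and 0 rose in either. All 12 microglia and macrophage markers rose at day 3 in both series, and at day 10 10 of 12 rose without GH and 12 of 12 with GH. At day 3 without GH 8 of 12 hypothalamus markers fell (median -0.65), as did 4 of 8 striatum markers (median -0.37) and 6 of 13 immediate early genes (median -0.85), and 0 rose. With GH the counts were 6 of 12, 5 of 8 and 6 of 13, and 2 immediate early genes rose. Summed microglia and macrophage markers were 151 to 154 FPKM in Sham 2 and 3, 1307 to 2059 in PEL_3d and 548 to 1186 in PEL_10d. Summed astrocyte markers were 669 to 712 FPKM in Sham 2 and 3, 1638 to 1795 in PEL_3d and 1113 to 1244 in PEL_10d. Of the 8 astrocyte markers 6 rose and 2 fell at day 3 without GH. In tissue RNA fewer cells of a type and less RNA per cell cannot be told apart.

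When the libraries were scaled to the summed counts of the pan-neuronal markers instead of TMM, the day 3 picture changed. This scaling was added after the data had been seen, and it brought the median log2 fold change of all genes at day 3 from -0.01 to 0.35 without GH and to 0.51 with GH. In that scaling 49.8% of all genes passed as higher and 1.47% as lower without GH, and 65.3% and 1.57% with GH. Against Sham without GH, Pcsk1 and Chgb were still lower at day 3 (log2 fold change -0.45 ± 0.08, SE, edgeR adjusted p = 0.0019, and -0.17 ± 0.06, SE, edgeR adjusted p = 0.04). Pcsk2, Pam, Chga, Scg2 and Scg5 were then between -0.06 and 0.05 and did not pass. Cpe, Scg3 and Vgf passed as higher relative to these markers, at 0.21, 0.38 and 0.57 (edgeR adjusted p = 0.015, 0.00094 and 0.0057), with Cpe below the median of all genes. With GH the same 3 genes passed as higher, at 0.24, 0.68 and 0.52 (edgeR adjusted p = 0.015, 0.0002 and 0.0019), 0 of the 10 passed as lower, Cpe was again below the median of all genes, and Pcsk1 was at -0.20 (edgeR adjusted p = 0.055). At day 10 Cpe was the gene that passed without GH (0.61 ± 0.07, SE; edgeR adjusted p = 0.0008), and Cpe, Scg3 and Vgf passed with GH (0.66, 0.39 and 0.38; edgeR adjusted p = 8.8e-05, 0.00095 and 0.0076). At day 10 16% of all genes passed as higher and 0.142% as lower without GH, and 48.8% and 1.12% with GH.

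**Figure D3:**
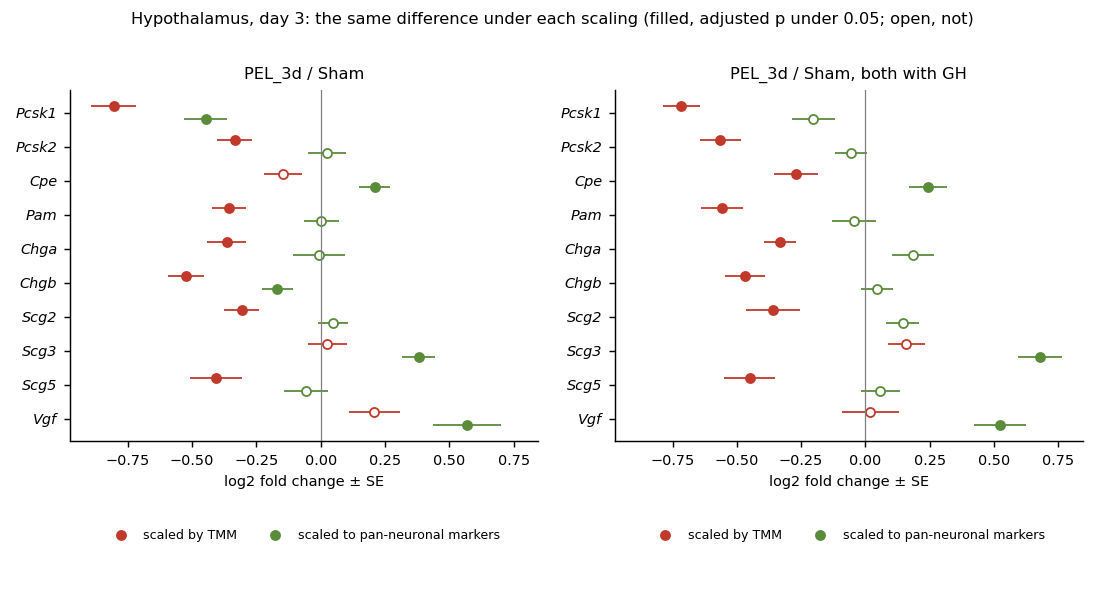
Log2 fold changes with their SE (x axis) of the 10 genes (y axis) at day 3 against Sham under TMM scaling and under scaling to pan-neuronal markers, without GH (left) and with GH (right), filled where the adjusted p was under 0.05. Scaling to neuronal markers moved all 10 genes to the right, and left Pcsk1 lowest (-0.45 without GH and -0.20 with GH), with the median of all genes at 0.35 and 0.51.

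Other genes of the pathway were counted beside the shares over all genes, of which 22.3% rose and 18.2% fell at day 3 without GH. Of 20 tested other processing enzymes, 7 rose and 3 fell in that comparison (median log2 fold change -0.02). With GH 7 rose and 5 fell at day 3, where 26.9% of all genes rose and 25.1% fell, and 7 rose and 3 fell of 21 at day 10, where 17.7% rose and 13.3% fell. At day 10 without GH 3 rose and 0 fell of 21, where 7.98% of all genes rose and 1.44% fell. In this list at day 3 without GH the cathepsin genes Ctsb and Ctsl, lysosomal proteases that are also abundant in macrophages, rose most (2.02 ± 0.12 and 1.70 ± 0.08, SE). The constitutive convertase gene Furin rose by 1.12 ± 0.14 (SE) and the carboxypeptidase D gene Cpd by 0.63 ± 0.07 (SE). Of 27 dense-core vesicle genes 19 fell and 1 rose at day 3 without GH, with a median of -0.35. They included the exocytosis genes Sytl4 (-0.89 ± 0.11, SE), Doc2b (-0.69 ± 0.11, SE) and Cadps2 (-0.57 ± 0.08, SE), and Rab3d was the 1 that rose (0.93 ± 0.15, SE). With GH 20 of the 27 fell and 1 rose, where 25.1% of all genes fell and 26.9% rose. At day 10 without GH 1 fell, Cadps2 (-0.39 ± 0.10, SE), and 1 rose, Bace2 (0.78 ± 0.17, SE), where 1.44% of all genes fell and 7.98% rose. Both calls were lost without Sham 2 or Sham 3, and that of Cadps2 also without PEL_10d 3 (edgeR adjusted p = 0.062 to 0.29). At day 10 with GH 15 of the 27 fell and 2 rose, where 13.3% of all genes fell and 17.7% rose.

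Among the cargo, 9 of 26 tested neuropeptide precursor genes fell and 2 rose at day 3 without GH, where 18.2% of all genes fell and 22.3% rose. With GH 8 fell and 2 rose at day 3, where 25.1% of all genes fell and 26.9% rose, and 4 fell and 3 rose at day 10, where 13.3% fell and 17.7% rose. At day 10 without GH 2 fell and 1 rose, where 1.44% of all genes fell and 7.98% rose. At day 3 without GH Avp fell by 2.76 on the log2 scale (SE 0.19; edgeR adjusted p = 1.8e-06), the growth hormone-releasing hormone gene Ghrh by 1.74 (SE 0.26; edgeR adjusted p = 0.00051) and the oxytocin gene Oxt by 1.43 (SE 0.38; edgeR adjusted p = 0.012). Oxt held 89.0 and 222 FPKM in Sham 2 and 3 and 68.2, 77.9 and 29.8 in PEL_3d. Without Sham 3 the difference in Oxt was -0.64 ± 0.40 (SE) and did not pass (edgeR adjusted p = 0.28). The galanin gene Gal rose by 2.04 ± 0.17 (SE; edgeR adjusted p = 6.4e-06). With GH Avp held 125, 146 and 134 FPKM in Sham, 11.5, 105 and 21.6 in PEL_3d and 95.9, 140 and 93.9 in PEL_10d. In the same groups Oxt held 67.0, 122 and 82.5, then 22.0, 54.2 and 67.6, then 69.3, 67.9 and 46.7 FPKM. At day 10 with GH both genes overlapped Sham with GH. At day 10 without GH Oxt (-2.17 ± 0.31, SE) and Avp (-1.38 ± 0.22, SE) were lower and the PACAP precursor gene Adcyap1 was higher (0.30 ± 0.07, SE). Oxt held 39.6, 32.1 and 33.6 FPKM at day 10, below both Sham libraries, and without Sham 3 its difference was -1.37 ± 0.14 (SE; edgeR adjusted p = 0.012). Without Sham 3 Avp was at -1.02 ± 0.22 (SE) and did not pass (edgeR adjusted p = 0.073). The call of Adcyap1 was lost without Sham 2, Sham 3, PEL_10d 1 or PEL_10d 2 (edgeR adjusted p = 0.053 to 0.29).

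With GH against without, 0 of the 10 genes passed in Sham, at day 3 or at day 10, and few genes of any kind did. In Sham with GH against Sham 0 of the 10 genes passed, where 1.09% of all genes passed. At day 3 after the lesion 0 of 10 passed, where 0.027% of all genes passed, and at day 10 0 of 10, where 0% passed. At an unadjusted p under 0.05 the counts were 3, 0 and 1, and DESeq2 called 0 in each. The 3 were Cpe, Pcsk2 and Pam in Sham (log2 fold change 0.20 ± 0.07, 0.12 ± 0.05 and 0.12 ± 0.05, SE; edgeR adjusted p = 0.17, 0.3 and 0.33). The 1 at day 10 was Vgf, at 70.2, 72.0 and 55.8 FPKM without GH and 87.1, 72.4 and 80.0 with it, with no overlap (0.29 ± 0.10, SE; edgeR adjusted p = 0.77). The other 7 genes in Sham lay between -0.08 (Chgb and Scg3) and 0.07 (Scg2), with Pcsk1 at -0.05, Scg5 at -0.03, Chga at -0.0039 and Vgf at 0.02. At day 3 the values were 0.05 for Pcsk1, -0.09 for Pcsk2, -0.06 for Scg5, 0.09 for Cpe, -0.08 for Pam, 0.04 for Chga, -0.0081 for Chgb, 0.03 for Scg2, 0.07 for Scg3 and -0.15 for Vgf. At day 10 the 9 others were -0.04 for Pcsk1, 0.18 for Pcsk2, -0.08 for Scg5, 0.17 for Cpe, -0.12 for Pam, 0.06 for Chga, -0.08 for Chgb, 0.09 for Scg2 and 0.06 for Scg3. The 95% intervals of Pcsk1 ran from -0.18 to 0.07 in Sham, from -0.13 to 0.22 at day 3 and from -0.22 to 0.14 at day 10. The test of whether the lesion effect differed with GH passed for 0 of 10 genes at day 3, where 0.0462% of genes passed, 0.00659% higher and 0.0396% lower, and for 0 of 10 at day 10, where 0% passed. At an unadjusted p under 0.05 these were 0 and 1 (Pam at day 10, -0.23 ± 0.09, SE; edgeR adjusted p = 0.47), and DESeq2 called 0 in both. At day 3 the differences were 0.09 for Pcsk1, -0.23 for Pcsk2, -0.04 for Scg5, -0.12 for Cpe, -0.21 for Pam, 0.03 for Chga, 0.05 for Chgb, -0.06 for Scg2, 0.13 for Scg3 and -0.19 for Vgf (edgeR adjusted p = 0.51 to 0.96). At day 10 they were 0.02 for Pcsk1, 0.07 for Pcsk2, -0.05 for Scg5, -0.03 for Cpe, 0.07 for Chga, -0.0012 for Chgb, 0.03 for Scg2, 0.14 for Scg3 and 0.27 for Vgf (edgeR adjusted p = 0.64 to 0.999). Without PEL_3d with GH 3, Pcsk2 passed at day 3 (-0.33 ± 0.08, SE; edgeR adjusted p = 0.038).

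Transcripts of the pituitary varied between single libraries, some with Chga and Pcsk2 and some not. In PEL_10d with GH 3 the proopiomelanocortin gene Pomc, a prohormone that PC1/3 and PC2 cut in the pituitary, was at 5479 FPKM, against 10.4 to 80.2 in the other hypothalamic libraries without Sham 1. The glycoprotein hormone alpha subunit gene Cga was at 34.7 FPKM and the prolactin gene Prl at 32.4 in that library. The thyrotropin beta gene Tshb was at 0.425 FPKM there, the lowest of its group, and the growth hormone gene Gh at 4.97, below the 7.62 of library 2. Pcsk2 (80.2 FPKM) and Chga (192 FPKM) were at their highest there. Without it, Pcsk2, Chga and Scg5 passed as lower in PEL_10d with GH than in Sham with GH, at -0.34, -0.31 and -0.26 on the log2 scale (edgeR adjusted p = 0.0038, 0.0043 and 0.037), and the count rose from 4 to 7 genes. In the PEL_10d group Cga was at 31.4, 8.30 and 3.78 FPKM in libraries 1 to 3, beside 183, 153 and 100.001 FPKM of Chga, while Prl was at 0.071, 0.20 and 0.51. In the same libraries Pomc was at 80.2, 56.5 and 10.4 FPKM and the hypothalamic gene Agrp at 6.94, 3.31 and 0.18. As a description over the 17 hypothalamic libraries without Sham 1, r of log2(FPKM + 1) was 0.72 between Chga and Cga, 0.70 between Chga and Pomc, and 0.05 between Chga and Tshb. For Pcsk2 it was 0.61 with Pomc, 0.23 with Cga and -0.51 with Tshb. PEL_10d with GH 3 was the highest of these libraries for Pomc, Pcsk2 and Chga, and r was not computed without it. Summed over 10 anterior pituitary markers the levels were 22.2 to 38.0 FPKM in Sham 2 and 3, 14.3 to 28.7 in PEL_3d, 15.9 to 39.8 in PEL_10d and 15.9 to 84.0 in PEL_10d with GH. At day 3 without GH 3 of 8 tested anterior pituitary markers fell and 0 rose, where 18.2% of all genes fell and 22.3% rose. The median of their log2 fold changes was -0.77, and -0.01 over all genes. The part of pituitary RNA in these values was not tested.

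The hypothalamus and the hippocampus held the same machinery in different proportions. At day 10 after the lesion 8 of the 10 genes differed between the tissues, where 60.6% of genes passed, 30.9% higher in the hypothalamus and 29.7% lower. Scg2, Pcsk1, Chga, Pam and Scg5 were higher in the hypothalamus and Chgb, Pcsk2 and Cpe higher in the hippocampus. Scg2 held 465, 521 and 485 FPKM in the hypothalamus and 100.006, 118 and 118 in the hippocampus, a 3.68-fold difference (log2 1.88 ± 0.09, SE; edgeR adjusted p = 2.9e-07). Chgb showed the opposite, at 127, 129 and 121 FPKM in the hypothalamus and 273, 212 and 274 in the hippocampus, 2.39-fold lower in the hypothalamus (edgeR adjusted p = 6.7e-06). So of the 3 genes whose promoter windows carry TGACGTCA, Scg2 and Pcsk1 were higher in the hypothalamus and Chgb was lower.

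The convertases also divided between the tissues. Pcsk1 was at 18.4, 20.0 and 16.1 FPKM in the hypothalamus and 8.37, 7.77 and 5.29 in the hippocampus, 2.15-fold higher in the former (edgeR adjusted p = 0.00019). Pcsk2 was at 50.7, 57.0 and 52.7 FPKM in the hypothalamus and 66.9, 60.5 and 70.1 in the hippocampus, 1.46-fold lower in the former (edgeR adjusted p = 0.00027). Neither pair overlapped. Pam (1.03 ± 0.07, SE; edgeR adjusted p = 1.8e-06) and Chga (1.04 ± 0.18, SE; edgeR adjusted p = 0.00087) were each 2.05-fold higher in the hypothalamus, and Cpe was 1.45-fold lower there, at 969.8, 1040.5 and 1089 FPKM against 1273, 1269 and 1241 (edgeR adjusted p = 9.6e-05). Scg5 differed by 0.19 ± 0.06 (SE; edgeR adjusted p = 0.027), a call lost without 4 of the 6 libraries, PEL_10d 2 and 3 of either tissue (edgeR adjusted p = 0.093 to 0.11), and under a replicate block (0.052). Scg3 (0.02 ± 0.07, SE) and Vgf (0.18 ± 0.11, SE) did not pass (edgeR adjusted p = 0.85 and 0.17).

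Scaled to the pan-neuronal markers, whose summed level was 2253 to 2413 FPKM in these hypothalamic libraries and 3156 to 3292 in the hippocampal ones, the median over all genes went to 0.78 and the directions of Pcsk2 and Cpe turned. Pcsk2 was then higher in the hypothalamus by 0.22 and Cpe by 0.23 (edgeR adjusted p = 0.018 and 0.0044), while Chgb stayed lower (-0.49 ± 0.11, SE; edgeR adjusted p = 0.0016), and 9 of 10 genes passed as higher, where 79.7% of all genes passed as higher and 7.52% as lower. Pcsk2 and Cpe lay below the median of all genes in that scaling.

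Under TMM scaling, where 30.9% of all genes were higher in the hypothalamus and 29.7% lower, 18 of 24 tested neuropeptide precursors were higher in the hypothalamus and 3 lower, against 9 and 12 of 27 dense-core vesicle genes. The exocytosis gene Baiap3 (5.24 ± 0.27, SE) and the granule membrane gene Resp18 (2.74 ± 0.18, SE) were among those higher in the hypothalamus.

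**Figure D4:**
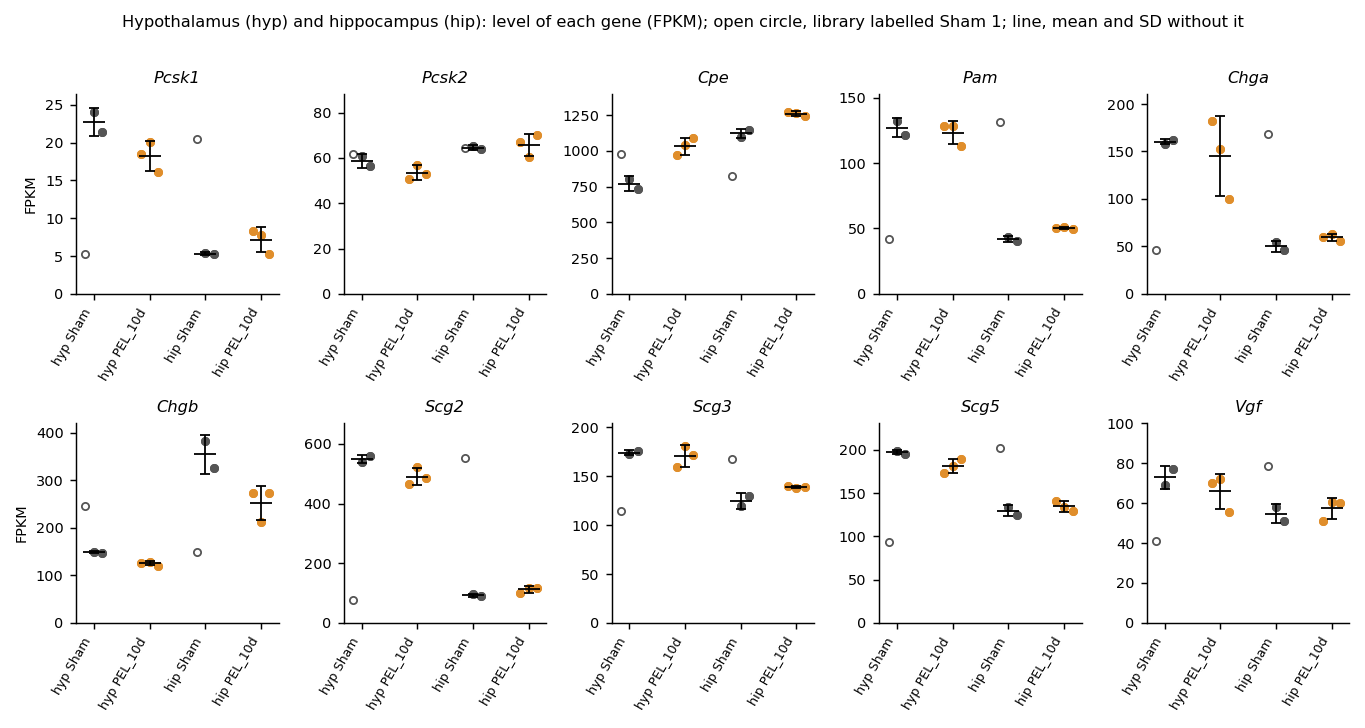
FPKM of each gene (y axis, linear from 0) in Sham and PEL_10d libraries of the hypothalamus (hyp) and hippocampus (hip), 1 point per library, with the mean and SD as lines and the libraries labelled Sham 1 as open circles outside them. Pcsk1, Pam, Chga and Scg2 were higher and Chgb lower in the hypothalamus than in the hippocampus, and for Scg2 each library labelled Sham 1 lay near the other tissue (75.6 FPKM in hypothalamus, 552 in hippocampus).

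In the hippocampus the lesion was tested with and without the library labelled Sham 1. Over all 3 Sham libraries 0 of the 10 genes passed at day 10, where 0% of all 14039 genes passed (edgeR). At an unadjusted p under 0.05 the count was 0 of 10, and DESeq2 called 0. The log2 fold changes were -0.43 for Pcsk1, 0.08 for Pcsk2, -0.13 for Scg5, 0.33 for Cpe, -0.42 for Pam, -0.48 for Chga, -0.16 for Chgb, -0.999 for Scg2, 0.08 for Scg3 and -0.16 for Vgf (edgeR adjusted p = 0.605 to 0.883). These values include the library labelled Sham 1, which stood apart from the other Sham libraries, with Scg2 at 552, 96.5 and 89.7 FPKM in Sham 1 to 3. Without it Chgb was lower after the lesion, at 383 and 326 FPKM in Sham 2 and 3 and 273, 212 and 274 in PEL_10d (log2 fold change -0.51 ± 0.12, SE; edgeR adjusted p = 0.045), where 2.09% of all genes passed as higher and 4.07% as lower, and the other 9 did not pass. In that fit Pcsk1 (0.40 ± 0.17, SE), Scg5 (0.03), Pam (0.23), Chga (0.23), Scg2 (0.25 ± 0.09, SE) and Vgf (0.03) turned to above 0, and Pcsk2 (0.0089), Cpe (0.15) and Scg3 (0.16) stayed above it (edgeR adjusted p = 0.053 to 0.95). Choroid plexus markers summed to 5227 to 6531 FPKM in hippocampal Sham 2 and 3 and to 107 to 941 in hippocampal PEL_10d, and their part in these differences was not tested.

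The lesion effect at day 10 was then compared between the tissues with both Sham 1 libraries left out. The interaction passed for 2 of 10 genes, both more negative in the hypothalamus, where 10.7% of all genes passed, 6.52% higher and 4.22% lower. Pcsk1 differed by -0.77 ± 0.22 (SE; edgeR adjusted p = 0.042) and Scg2 by -0.46 ± 0.12 (SE; edgeR adjusted p = 0.034). Of the others, Cpe (0.23) and Chgb (0.21) lay above 0, and Pcsk2 (-0.19), Scg5 (-0.20), Chga (-0.42), Scg3 (-0.22) and Vgf (-0.22) below it, with edgeR adjusted p = 0.16 to 0.41. In FPKM, Pcsk1 went from 24.0 and 21.4 to 18.4, 20.0 and 16.1 in the hypothalamus and from 5.44 and 5.22 to 8.37, 7.77 and 5.29 in the hippocampus. Scg2 went from 539 and 559 to 465, 521 and 485 in the hypothalamus and from 96.5 and 89.7 to 100.006, 118 and 118 in the hippocampus. Pam missed the threshold (-0.35 ± 0.10, SE; edgeR adjusted p = 0.051). Each call was lost when any 1 of 8 of the 10 libraries was left out, the 4 Sham libraries among them. The 2 that kept it were hippocampal PEL_10d 3 and hypothalamic PEL_10d 2 for Pcsk1, and hippocampal PEL_10d 1 and hypothalamic PEL_10d 2 for Scg2. Where it was lost, Pcsk1 was at -0.64 to -0.87 (edgeR adjusted p = 0.055 to 0.15) and Scg2 at -0.39 to -0.51 (edgeR adjusted p = 0.057 to 0.18).

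Across the 17 hypothalamic libraries without Sham 1, some of the 10 genes tracked each other closely and some did not. As a description, Pearson's r of log2(FPKM + 1) was 0.93 between Chgb and Scg5 and between Chgb and Pcsk1. With the summed pan-neuronal markers r was 0.92 for Chgb, 0.88 for Scg2, 0.87 for Scg5, 0.86 for Pam and 0.85 for Pcsk1, and with the summed microglia and macrophage markers it was -0.92, -0.79, -0.77, -0.85 and -0.87. Pcsk2 (0.69), Chga (0.42), Cpe (0.28), Vgf (-0.09) and Scg3 (-0.43) followed the pan-neuronal markers less closely or in the opposite sense. These libraries come from 6 groups, and the values follow the group differences above.

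Of 9755 genes with a mean of at least 5 FPKM, those most like each member over these 17 libraries were named by r. They were Igip, Macrod2 and Pdcd4 for Pcsk1 (0.97, 0.95 and 0.95), Stx16, Ntrk3 and Lancl1 for Pcsk2 (0.96, 0.91 and 0.84), and Tspyl1, Nap1l5 and Edil3 for Scg5 (0.95, 0.94 and 0.93). Cpe was most like Tspan2, Car14 and Nrbp2 (0.95, 0.93 and 0.91), and Pam like Dner, Gabra5 and Syt14 (0.96, 0.96 and 0.95). Chgb was most like Tmem255a, Rab9b and Atp1b1 (0.98, 0.97 and 0.97), Scg2 like Got1, Matk and Ndrg3 (0.94, 0.93 and 0.93) and Chga like Megf11, Gpx3 and H2-Q2 (0.86, 0.82 and 0.82). For Scg3 the genes were Cetn4, Rgs20 and Eif3g (0.87, 0.81 and 0.80) and for Vgf Arhgef7, Abhd17a and Pgs1 (0.81, 0.80 and 0.78). No member was among the 3 genes most like another member. With Sham 1 added back 6 of these 30 genes were shared.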

How the data were processed

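Per the labels and the study's methods, mRNA-seq libraries of mouse hypothalamus and hippocampus were aligned with Hisat2 and counted with featureCounts, and the notes name the genome as GRCm38 (mm10). Values came as 1 table, in which the authors deposited for each gene and library an estimated count and its FPKM. Of the deposited count values 8.22% were not whole (0 among the 10 genes), so counts were rounded. FPKM values were used as deposited, for levels only. Groups were taken from sample titles and labels. Positions are those of GENCODE vM21, and 22219 of 22274 identifiers matched a symbol.

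The fits used edgeR 4.0.16 under R 4.3.3 (quasi-likelihood test, TMM scaling, filterByExpr with a minimum count of 10, Benjamini-Hochberg over all genes tested, threshold 0.05). Each fit held only the groups compared. Intervals are log2 fold changes with 95% normal limits. The hypothalamic library labelled Sham 1 was left out, and both Sham 1 libraries from the interaction between tissues. Replicate pairs had a chi-square per degree of freedom of 3.19 to 19.7, and 156 to 160 in the 4 pairs with a Sham 1. Alternatives were DESeq2 1.42.0, its size factors in edgeR, other filters, a replicate block, 1 fit over all hypothalamic groups, Sham 1 added back, each library left out, and scaling to pan-neuronal markers, which was added after the data had been seen. On simulated data with 200 genes changed 2-fold, 77% were recovered for PEL_10d against Sham over 14772 genes. The simulation gave every gene a dispersion of 0.03 and changed only genes with a mean count over 50. Changes of less than 2-fold were not simulated. The 10 genes, the lists and the alternatives were chosen with earlier results of these data known. The 10 genes are given in every comparison, the other lists by counts and up to 4 genes that passed with the largest change, and for each member the 3 genes most like it. Python 3.11.15 with pandas 2.3.3 and matplotlib 3.10.9 served for tables and plots.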

Additional observations from a re-analysis of the deposited data

Results flagged for a closer look

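The lesion effect at day 10 differed between hypothalamus and hippocampus for Pcsk1, by -0.77 on the log2 scale (SE 0.22), and for Scg2, by -0.46 (SE 0.12), in the interaction test (edgeR adjusted p = 0.042 and 0.034). Within each tissue neither gene passed in edgeR, and DESeq2 called Pcsk1 in the hypothalamus (DESeq2 adjusted p = 0.03). In the hypothalamus Pcsk1 differed from Sham by -0.34 and Scg2 by -0.19 (edgeR adjusted p = 0.067 and 0.15), and in the hippocampus without Sham 1 by 0.40 and 0.25 (edgeR adjusted p = 0.19 and 0.13). With both Sham 1 libraries added back neither passed and both values turned sign (0.51 and 1.31). Each call was also lost without any 1 of 8 of the 10 libraries. Choroid plexus markers summed to 5227 to 6531 FPKM in hippocampal Sham 2 and 3 and to 107 to 941 in hippocampal PEL_10d, and their part in these values was not tested.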

How the results depend on the processing

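Among 38 pairs of gene and comparison that passed, 214 of 229 values under other planned settings kept direction and threshold, 10 lost the threshold and 5 turned. Leaving out 1 library kept 177 of 227 and lost 50. All 38 held under DESeq2, under its size factors in edgeR, without a filter on low counts and with a mean count of at least 50. DESeq2 also called 5 more: Pcsk1 in PEL_10d against Sham (-0.34), Scg5 in PEL_10d against PEL_3d (0.27), Scg2 in PEL_10d with GH against Sham with GH (-0.15), Pcsk2 in PEL_10d with GH against PEL_3d with GH (0.48) and Pam in the interaction of tissue and lesion (-0.36). With Sham 1 added back 0 genes passed in PEL_3d against Sham, PEL_10d against Sham and the interaction of tissue and lesion, and 6 of the 30 genes most like a member were shared. In that setting Pam (0.020), Chga (0.031) and Scg2 (0.19) turned positive at day 3, and Pcsk1 (0.51) and Scg2 (1.31) in the interaction, and the cause was not tested. Scaled to pan-neuronal markers, 1 gene passed in PEL_10d against Sham, 3 in PEL_3d with GH against Sham with GH and 1 in the interaction. The log2 values that turned there were Pcsk2 (0.024), Pam (0.0023) and Scg2 (0.047) at day 3, Cpe (0.24), Chga (0.19), Chgb (0.044), Scg2 (0.14) and Scg5 (0.058) at day 3 with GH, Chgb (0.011) at day 10 with GH, and Pcsk2 (0.22) and Cpe (0.23) between tissues. By its construction this scaling shifts the values of all genes of a comparison alike, so negative values smaller in size than the shift turned. These had passed under TMM scaling, among them Pcsk2 (-0.54) and Cpe (-0.53) between tissues. In 1 fit over all hypothalamic groups 5 genes passed in PEL_10d with GH against PEL_3d with GH, while at day 3 Pcsk2 and Chga without GH (edgeR adjusted p = 0.084 and 0.12) and Chga with GH (0.11) lost their calls.

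Leaving out 1 library gave 5 to 8 genes in PEL_3d against Sham, 0 to 3 in PEL_10d against Sham (0 without Sham 2 or Sham 3, 1 without PEL_10d 3), 2 to 6 in PEL_10d against PEL_3d, 6 to 8 and 4 to 7 against Sham with GH at day 3 and day 10, 1 to 6 in PEL_10d with GH against PEL_3d with GH, 0 to 1 in hippocampus against Sham, 7 to 8 between tissues, 0 to 1 in the test of GH by lesion at day 3 and 0 to 3 in the interaction of tissue and lesion. In PEL_10d against PEL_3d it was 3 without PEL_3d 1 and 2 without PEL_3d 3 or PEL_10d 2. In PEL_10d with GH against PEL_3d with GH it was 6 without PEL_3d with GH 3 and 1 without any of PEL_3d with GH 1, PEL_3d with GH 2, PEL_10d with GH 2 or PEL_10d with GH 3.

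The libraries share replicate numbers only. In 0 of 8 comparisons with 3 pairs were all same-numbered correlations over 0.1, and in 0 of 8 did every library correlate best with its own number. With a replicate block 7 genes passed in PEL_3d against Sham, 3 in PEL_10d against Sham, 6 in PEL_10d against PEL_3d, 8 and 5 against Sham with GH and 7 between tissues, and Scg5 between tissues was the 1 call of the 38 that it ended. The self-test recovered 22% of 200 genes changed 2-fold for GH by lesion at day 10 over 14981 genes, so an interaction of that size can be missed.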
